A study of Mus musculus with 40 samples.

Results

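Whether antibiotics changed the response of the adolescent medial prefrontal cortex to morphine was read from 20 of the 40 libraries of the study, 5 in each of 4 groups. All mice were female wild-type C57BL/6J, a standard inbred strain, and the adolescents entered at postnatal day 25. The groups were mice given oral antibiotics and morphine (Abx Morphine in the labels), oral antibiotics and saline (Abx Saline), plain water and morphine (H2O Morphine) and plain water and saline (H2O Saline). Morphine was given under the skin at 15 mg/kg and saline by the same route, both for 5 days. The other 20 libraries came from adults, entered at postnatal day 55, in the same 4 groups of 5. The interaction of a gene is its log2 fold change of morphine over saline under antibiotics minus its log2 fold change of morphine over saline on water. A positive interaction means a higher response to morphine under antibiotics, and it can arise from a change in any of the 4 groups. Groups were chosen by their labels and by no measured value. The antibiotics are not named in the sources used here, the tissue label reads brain with the region given in the title of the series, and the cell type label reads all. The labels do not state whether each library is a mouse of its own, so the p-values below rest on the spread among libraries, which may be technical.

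Polyadenylated RNA was counted per gene in raw reads, with 8.64 to 12.1 M counts per library (M for mega). Levels are in CPM, the counts of a gene per M counts of its library, scaled by TMM, a normalization of library sizes, and 3 counts stood for 0.248 to 0.347 CPM. Defining markers of cortex were present: the summed level of 20 markers of cortical excitatory neurons lay between 2860 and 3520 CPM in the 20 adolescent libraries, and that of 10 markers of the choroid plexus and ependyma between 11.7 and 19.4 CPM. In such bulk tissue fewer cells of a type and less RNA per cell cannot be told apart. Of the libraries, antibiotics-morphine replicate 5 stood apart from its group. On the first principal component of the adolescent libraries, with 13.8% of the variance, it lay at 1.03 while the other antibiotics-morphine libraries lay between 9.87 and 18.6, and libraries of the other groups between -11.7 and 3.3. Water-saline replicate 5 lay farthest out on the second component, at 17. Of the 20 adolescent libraries it had the highest summed astrocyte markers (8280 CPM), microglia markers (816 CPM) and mitochondrial share of counts (5.68%). Its summed cortical excitatory neuron markers, 2860 CPM, were the lowest. A fit with limma-voom, which weighs libraries by quality, gave it the lowest weight of all libraries, 0.358. Results below are given with all libraries. Where single libraries changed them, the counts without those libraries, or the number of fits without 1 library in which a call held, stand beside them.

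Morphine acts on the mu opioid receptor, a receptor coupled to inhibitory G proteins, and repeated exposure alters cAMP signalling, activity-dependent transcription and growth factor signalling in the cortex and in the circuits it connects to. Bdnf, a neurotrophin released by active neurons, and its receptor are among the best studied of these pathways. Chaperones of the endoplasmic reticulum fold secreted and membrane proteins, and the unfolded protein response raises them together through shared promoter elements. Sterol synthesis is likewise controlled as a group, by transcription factors that sense membrane cholesterol.

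An interaction was called for 221 of 17880 genes tested in adolescents, or 1.24% (edgeR quasi-likelihood test, adjusted p under 0.05 over all genes tested). Of these 111 were higher and 110 lower, 0.621% and 0.615% of the genes tested. Most were modest: the size of the called interactions ran from 0.29 to 3.98 on the log2 scale with a median of 0.52, and 37 reached 1. The median interaction over all genes tested was -0.01, and 9246 genes were negative and 8634 positive. Counts of called genes in the lists below are to be read against the 1.24%. At that share a short list can hold 0 called genes without differing from the rest. Among the genes called higher, the median response to morphine was 0.35 under antibiotics and -0.23 on water (log2). Among those called lower it was -0.32 under antibiotics and 0.16 on water. The 2 responses had opposite signs in 212 of the 221 genes, which selection on their difference favours. For 155 of the 221 genes, or 70.1%, the antibiotics-morphine group had the mean farthest from those of the other 3 groups, above them in 73 genes and below them in 82. The water-morphine group was farthest in 43 (19.5%), antibiotics-saline in 16 (7.24%) and water-saline in 7 (3.17%). Over all genes tested the antibiotics-morphine group was farthest in 35.5%, water-morphine in 23.6%, antibiotics-saline in 15.5% and water-saline in 25.4%. The choice of called genes bears on these shares, so no test was made of them.

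**Figure D1:**
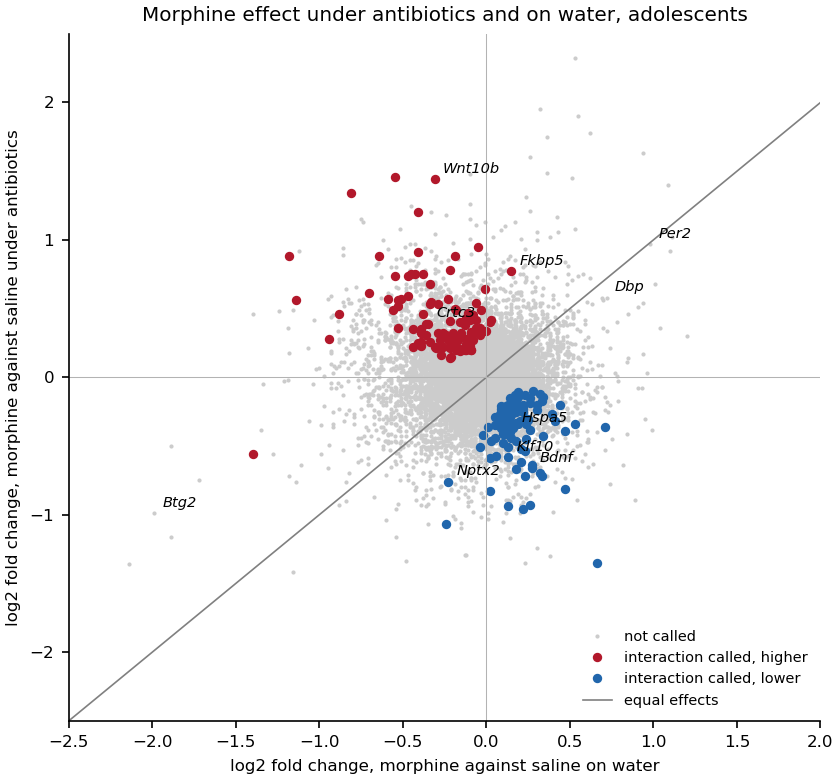
Log2 fold change of morphine over saline under antibiotics (vertical axis) against that on water (horizontal axis) in adolescents, 1 point per gene with a mean of at least 1 CPM. Genes with a called interaction lie off the line of equal effects, the higher ones (red) mostly at the upper left and the lower ones (blue) mostly at the lower right, while Per2 and Dbp lie near the line.

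The number of called genes rested on single libraries. Leaving out antibiotics-morphine replicate 2 gave 19, replicate 3 gave 48, replicate 4 gave 130 and replicate 5 gave 773. The count fell to 31 and 28 when antibiotics-saline replicates 3 and 4 were left out, and stood at 38 and 66 without water-morphine replicates 2 and 3, and 334 and 28 without water-saline replicates 3 and 5. The other 10 libraries moved it by less than 1.5 times when left out. Of the 51 called genes named below, 13 stayed called in every one of the 29 alternative fits: Bdnf, Rheb, Klf10, Hspa5, Ppid, Tceal9, Inka2, Crtc3, Fam214a, Rere, Arhgef10l, Uvssa and Gcfc2. The interaction of no called named gene changed sign in these fits. Of the same 51 genes, 34 lost the call without antibiotics-morphine replicate 2, 32 without antibiotics-saline replicate 4, 30 without water-saline replicate 5, 28 without antibiotics-saline replicate 3 and 27 each without antibiotics-morphine replicate 3 or water-morphine replicate 2. From 3 to 16 lost it without each of the remaining libraries, except antibiotics-morphine replicate 5, without which none did. With covariates from 6 cell marker lists, a fit added after the data were seen, 29 of the 51 lost the call.

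**Figure D2:**
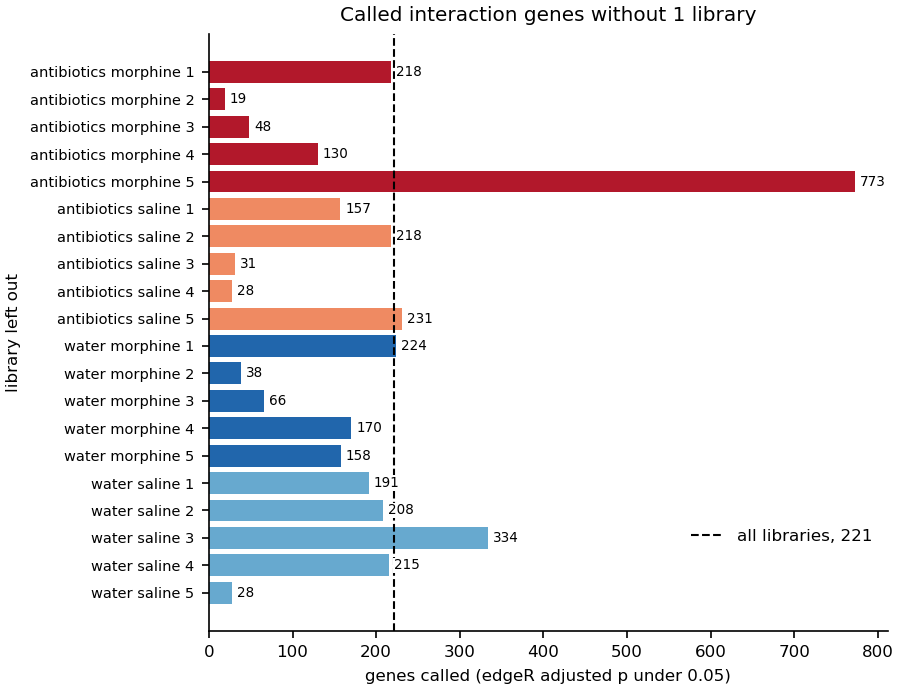
Number of genes with a called interaction in adolescents (edgeR adjusted p under 0.05) when the library named on the vertical axis was left out, coloured by group. The dashed line marks the 221 genes called with all libraries, the shortest bar is antibiotics-morphine replicate 2 at 19 and the longest antibiotics-morphine replicate 5 at 773.

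Bdnf had the smallest p of all genes. Its level was 25.7, 19.6, 23, 27.8 and 27.8 CPM in antibiotics-morphine libraries (replicates 1 to 5), 37.7, 37.3, 40.3, 41.4 and 39.1 CPM in antibiotics-saline libraries, 37.5, 44.8, 33.3, 39.4 and 40.5 CPM in water-morphine libraries, and 30.6, 26.9, 38.9, 33.2 and 32.2 CPM in water-saline libraries. The 5 antibiotics-morphine libraries lay below every antibiotics-saline and water-morphine library and overlapped only with the lowest water-saline library. The interaction was -0.93 ± 0.15 (SE, log2), or 0.524 times (edgeR adjusted p = 0.00166). It was made of a log2 fold change of morphine of -0.66 ± 0.11 under antibiotics (edgeR adjusted p = 0.000112) and one of 0.27 ± 0.1 on water (edgeR adjusted p = 0.256). Across the alternative fits the interaction of Bdnf lay between -0.99 and -0.72. An antisense gene that shares exon sequence, Gm45346, averaged 2.2 CPM, and the sources used here do not state whether counting used strand.

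Rheb and Nptx2, 2 further activity-regulated genes, were called lower. Rheb, a small GTPase that activates the growth kinase complex mTORC1, had 82.7, 67.5, 77.2, 72.6 and 87.9 CPM in antibiotics-morphine libraries, 97.1, 94.8, 98.2, 94.6 and 92.3 CPM in antibiotics-saline libraries, 98.8, 102, 105, 98.4 and 89.7 CPM in water-morphine libraries, and 86.4, 86.3, 97, 82.9 and 68.5 CPM in water-saline libraries. Antibiotics-morphine libraries lay below every antibiotics-saline and water-morphine library and overlapped with water-saline libraries. The interaction of Rheb was -0.53 ± 0.1 (SE, log2; edgeR adjusted p = 0.00878). Nptx2, a pentraxin that neurons secrete at excitatory synapses when active, had 48.6, 41.9, 58.5, 49.6 and 58.3 CPM in antibiotics-morphine libraries, 94.6, 76.1, 88.6, 88.4 and 88 CPM in antibiotics-saline libraries, 61.6, 73.2, 73.6, 64.7 and 65.2 CPM in water-morphine libraries, and 72.4, 64.6, 90, 90.9 and 79.2 CPM in water-saline libraries. Every antibiotics-morphine library lay below all 15 others. Its interaction was -0.53 ± 0.14 (SE, log2; edgeR adjusted p = 0.039). The call held in 9 of the 20 fits without 1 adolescent library, with an adjusted p of up to 0.106. It was also lost with an offset for GC content and transcript length and with marker covariates. Across all alternative fits the adjusted p of Nptx2 reached 0.207 (edgeR). In the list of activity-regulated secreted and synaptic genes Bdnf, Rheb and Nptx2 were called among 20 tested members, or 15% against 1.24% over all genes tested. In this list 16 members had a negative interaction, and the median was -0.18. Without antibiotics-morphine replicate 5 the list had 7 called members and without water-saline replicate 3 it had 5, all lower. Adcyap1, which encodes the neuropeptide PACAP and is outside the rule for named genes, was chosen after its values were seen: its interaction was -0.77 ± 0.18 (SE, log2; edgeR adjusted p = 0.0305), called in 14 of the 20 fits without 1 library.

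Klf10, a zinc finger transcription factor induced by TGF-beta, was the exception among these in which group stood out. It had 35.8, 30.9, 33.9, 39.9 and 37.6 CPM in antibiotics-morphine libraries, 50.1, 45.7, 56.6, 56.3 and 58.3 CPM in antibiotics-saline libraries, 39.8, 47.7, 39.4, 36.4 and 38.6 CPM in water-morphine libraries, and 37.1, 31, 37.1, 42 and 37.1 CPM in water-saline libraries. The antibiotics-saline libraries were high and overlapped with other groups only at 1 water-morphine library. The interaction of Klf10 was -0.72 ± 0.13 (SE, log2; edgeR adjusted p = 0.00878). The log2 fold change of antibiotics in saline-injected mice was 0.53 ± 0.09 (edgeR adjusted p = 0.00673), and that of morphine under antibiotics was -0.58 ± 0.09 (edgeR adjusted p = 0.000112). Both of these share the antibiotics-saline libraries with the interaction.

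Among 31 tested immediate early genes, which respond to neuronal activity within minutes to hours, 3 were called, Klf10, Homer1 and Dusp6, all lower. The share called was 9.68%, against 1.24% over all genes tested. The median of the list was -0.09, and 18 members were negative and 13 positive. Homer1, a postsynaptic scaffold whose short isoform is induced by activity, averaged 181 ± 24.7 CPM in antibiotics-morphine, 208 ± 19.2 in antibiotics-saline, 244 ± 27.4 in water-morphine and 180 ± 25.7 in water-saline libraries (SD, n = 5 each), with an interaction of -0.64 ± 0.16 (SE, log2; edgeR adjusted p = 0.0409). Dusp6, a phosphatase that switches off the kinase ERK, had an interaction of -0.47 ± 0.13 (SE, log2; edgeR adjusted p = 0.0482). The call held in 10 of the 20 fits without 1 library for Homer1 and in 4 for Dusp6. The list had 1 called member without antibiotics-morphine replicates 2, 3 or 4, antibiotics-saline replicates 3, 4 or 5, water-morphine replicate 2, or water-saline replicates 1 or 5, each left out alone. Fos and Btg2, members named whatever their p, went the other way without a call. Fos, the standard marker of recent activity, had an interaction of 0.3 ± 0.32 (SE, log2; edgeR adjusted p = 0.674). Btg2, an antiproliferative immediate early gene, averaged 9.75 ± 2.86 CPM in antibiotics-morphine, 19.3 ± 3.31 in antibiotics-saline, 9.64 ± 2.43 in water-morphine and 37.8 ± 6.64 in water-saline libraries (SD, n = 5 each). Its interaction was 1 ± 0.28 (SE, log2), which did not pass the test (edgeR adjusted p = 0.0649) and ranged from 0.0205 to 0.13 in adjusted p across the alternative fits, of which 4 called it.

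**Figure D3:**
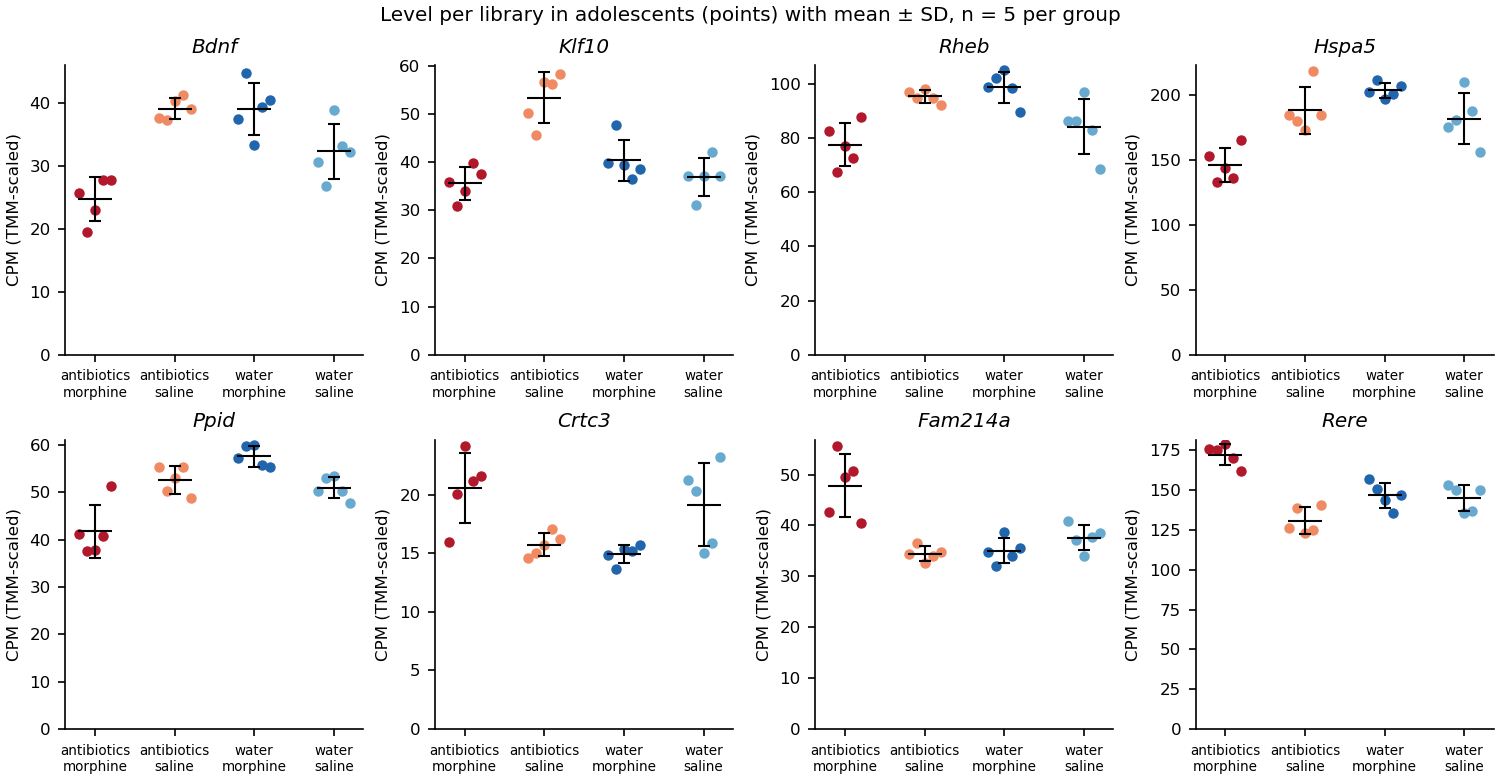
Level in CPM (scaled by TMM, linear axes from 0) of 8 genes with called interactions in each adolescent library, by group, with the mean and SD over 5 libraries. Antibiotics-morphine libraries are low for Bdnf, Rheb, Hspa5 and Ppid and high for Fam214a and Rere, antibiotics-saline libraries are high for Klf10, and Crtc3 is high in both antibiotics-morphine and water-saline libraries.

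Of the genes that carry cAMP signals to transcription, 2 coactivators of the factor CREB were called higher and a CREB family member, Crem, lower. Crtc3, a CREB coactivator, had 16, 20.1, 24.2, 21.2 and 21.6 CPM in antibiotics-morphine libraries, 14.6, 15, 15.7, 17.1 and 16.2 CPM in antibiotics-saline libraries, 14.9, 13.7, 15.4, 15.2 and 15.7 CPM in water-morphine libraries, and 21.3, 20.3, 15, 15.9 and 23.2 CPM in water-saline libraries. In antibiotics-morphine 4 libraries and in water-saline 3 libraries lay at 20 CPM or above, and no library of the other groups did. The interaction of Crtc3 was 0.74 ± 0.14 (SE, log2; edgeR adjusted p = 0.00878). Crtc2, a second CREB coactivator, had an interaction of 0.62 ± 0.16 (SE, log2; edgeR adjusted p = 0.0344). Crem, a cAMP-responsive member of the CREB family with activator and repressor isoforms that the count per gene does not separate, averaged 11.5 ± 1.14 CPM in antibiotics-morphine, 15.7 ± 1.29 in antibiotics-saline, 14.8 ± 1.31 in water-morphine and 12.5 ± 1.96 in water-saline libraries (SD, n = 5 each). Its interaction was -0.69 ± 0.16 (SE, log2; edgeR adjusted p = 0.0295). These were the 3 called members of 27 tested in the list of cAMP and CREB signalling, whose median was -0.01. The share called was 11.1%, against 1.24% over all genes tested. Of the 20 fits without 1 library, Crem kept its call in 15 and Crtc2 in 11. The list had 6 called members without antibiotics-morphine replicate 5. It had 1 without antibiotics-morphine replicate 3, antibiotics-saline replicates 3 or 4, water-morphine replicate 2 or water-saline replicate 5, each left out alone. The receptor for morphine, Oprm1, had an interaction of -0.28 ± 0.31 (SE, log2; edgeR adjusted p = 0.681) at 3.11 to 3.62 CPM in antibiotics-morphine libraries. It shares exon sequence with the antisense gene Ipcef1, which averaged 87.6 CPM, so its value is uncertain. No member was called among 8 tested opioid receptor and peptide genes, and their median was 0. Grk3, a kinase that phosphorylates activated G protein-coupled receptors, was chosen after its values were seen: its interaction was 0.4 ± 0.1 (SE, log2; edgeR adjusted p = 0.0339), called in 13 of the 20 fits without 1 library.

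In the list of endoplasmic reticulum chaperone and unfolded protein response genes, 5 of 23 tested were called, and all 5 were lower. The share called was 21.7%, against 1.24% over all genes tested. Of the 23, 22 had a negative interaction, against 9246 of 17880 genes tested, and the median was -0.27. The promoters of 4 of the 5 called genes (RefSeq, GRCm38.p6, 250 bases before to 50 after the gene start) hold the endoplasmic reticulum stress element, searched on both strands as CCAAT and CCACG with 9 bases between them. They are shown because this element is the textbook binding site through which the unfolded protein response raises chaperone genes, with the letters of the element in capitals, on either strand:
Hspa5, chr2:34771840-34772139, plus strand: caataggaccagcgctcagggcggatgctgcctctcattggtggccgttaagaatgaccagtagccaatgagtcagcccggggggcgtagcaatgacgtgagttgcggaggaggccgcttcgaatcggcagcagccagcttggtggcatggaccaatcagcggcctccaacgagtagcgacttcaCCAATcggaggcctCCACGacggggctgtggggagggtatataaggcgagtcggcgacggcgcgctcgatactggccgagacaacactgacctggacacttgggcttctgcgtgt
Pdia6, chr12:17266339-17266638, plus strand: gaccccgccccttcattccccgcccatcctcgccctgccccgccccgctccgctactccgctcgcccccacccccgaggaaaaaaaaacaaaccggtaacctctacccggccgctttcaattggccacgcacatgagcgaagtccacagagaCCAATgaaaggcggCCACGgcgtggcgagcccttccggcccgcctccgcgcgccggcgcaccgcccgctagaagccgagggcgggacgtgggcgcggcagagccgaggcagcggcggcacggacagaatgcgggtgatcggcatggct
Calr, chr8:84846882-84847181, minus strand: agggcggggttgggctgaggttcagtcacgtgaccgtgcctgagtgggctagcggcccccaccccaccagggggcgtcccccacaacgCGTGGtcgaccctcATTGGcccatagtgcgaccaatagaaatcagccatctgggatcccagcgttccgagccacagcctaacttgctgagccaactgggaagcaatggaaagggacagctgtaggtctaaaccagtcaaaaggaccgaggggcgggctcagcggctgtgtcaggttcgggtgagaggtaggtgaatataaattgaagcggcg
Hsp90b1, chr10:86705395-86705694, minus strand: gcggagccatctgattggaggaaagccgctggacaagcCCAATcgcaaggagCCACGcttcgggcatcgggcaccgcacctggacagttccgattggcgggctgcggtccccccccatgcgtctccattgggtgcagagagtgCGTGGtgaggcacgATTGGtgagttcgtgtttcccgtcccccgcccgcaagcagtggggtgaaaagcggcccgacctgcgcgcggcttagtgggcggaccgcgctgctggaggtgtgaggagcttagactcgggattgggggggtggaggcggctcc
In Calr the element was found on the opposite strand, and Hsp90b1 held it once on each strand. It was found in 9 of 21 promoters matched for the whole list, or 42.9%, and in 37 of 27025 genes of the promoter table, or 0.137%. The list holds known targets of the unfolded protein response, so this share describes the list and not the interaction. For cholesterol genes, the letters TCACCCCAC of a sterol response element were found in 1 of 18 promoters, that of Hmgcs1, against 0.614% of all genes. These matches are letters in a window and not sites shown to be used.

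Hspa5, the main chaperone of the endoplasmic reticulum, had 153, 133, 144, 136 and 166 CPM in antibiotics-morphine libraries, 185, 180, 173, 219 and 185 CPM in antibiotics-saline libraries, 203, 212, 197, 201 and 207 CPM in water-morphine libraries, and 176, 181, 210, 188 and 156 CPM in water-saline libraries. Antibiotics-morphine libraries were the lowest and overlapped with other groups at 1 water-saline library. The interaction was -0.53 ± 0.1 (SE, log2; edgeR adjusted p = 0.0103), with a log2 fold change of morphine of -0.37 ± 0.07 under antibiotics and 0.16 ± 0.07 on water. Pdia6, a protein disulfide isomerase, averaged 61.4 ± 7.95 CPM in antibiotics-morphine, 77.3 ± 6.17 in antibiotics-saline, 87.1 ± 4.84 in water-morphine and 79.2 ± 2.08 in water-saline libraries (SD, n = 5 each), with an interaction of -0.47 ± 0.1 (SE, log2; edgeR adjusted p = 0.0152). Calr, which encodes the calcium-binding chaperone calreticulin, had an interaction of -0.4 ± 0.09 (edgeR adjusted p = 0.0296). Both Pdia3, a disulfide isomerase, and Hsp90b1, the chaperone GRP94, stood at -0.34 ± 0.09 (SE, log2; edgeR adjusted p = 0.0482 each). Of the 20 fits without 1 library, Pdia6 kept its call in 19, Calr in 14, Hsp90b1 in 5 and Pdia3 in 3. The list kept 1 called member without antibiotics-saline replicate 4. It had 2 without antibiotics-morphine replicates 2 or 3, antibiotics-saline replicate 3, water-morphine replicate 2 or water-saline replicate 5, each left out alone. It had 3 without antibiotics-morphine replicate 4, antibiotics-saline replicate 1, water-morphine replicates 1, 3, 4 or 5, or water-saline replicates 1 or 2. Without antibiotics-morphine replicate 5 it had 8.

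Outside the endoplasmic reticulum, Ppid and the called genes of the heat shock list were lower too, while Fkbp5, a co-chaperone described below, was called higher. Ppid, a cyclophilin that works as a partner of the chaperone Hsp90, had 41.2, 37.7, 37.8, 40.8 and 51.4 CPM in antibiotics-morphine libraries, 55.3, 50.2, 53.1, 55.3 and 48.8 CPM in antibiotics-saline libraries, 57.2, 59.8, 60, 55.9 and 55.3 CPM in water-morphine libraries, and 50.4, 53, 53.4, 50.4 and 47.8 CPM in water-saline libraries. The first 4 antibiotics-morphine libraries lay below all other groups and replicate 5 did not. Its interaction was -0.51 ± 0.1 (SE, log2; edgeR adjusted p = 0.00904). Of 27 tested cytosolic and mitochondrial heat shock genes, 23 were negative and the median was -0.24. In this list 4 genes were called, all lower, or 14.8% against 1.24% over all genes tested. They were Hsph1, a nucleotide exchange factor of Hsp70, at -0.53 ± 0.13 (edgeR adjusted p = 0.0338), and the Hsp70 partner Dnajb5 at -0.4 ± 0.1 (edgeR adjusted p = 0.0362). The others were the mitochondrial chaperonin Hspd1 at -0.33 ± 0.09 (edgeR adjusted p = 0.0419) and the Hsp70 partner Dnaja1 at -0.33 ± 0.09 (SE, log2; edgeR adjusted p = 0.0422). Of the 20 fits without 1 library, Hsph1 kept its call in 13, Hspd1 in 9, Dnaja1 in 7 and Dnajb5 in 6. Hspd1 shares exon sequence with the antisense gene Hspe1, which averaged 34.4 CPM. The list had 0 called members in the fit of adolescents alone, with marker covariates, and without antibiotics-morphine replicates 2 or 3, antibiotics-saline replicates 3 or 4 or water-morphine replicate 2. It had 1 without antibiotics-saline replicate 1, water-morphine replicate 3 or water-saline replicates 4 or 5. It had 2 without antibiotics-morphine replicate 4, antibiotics-saline replicate 5, water-morphine replicate 5 or water-saline replicate 2. Without antibiotics-morphine replicate 5 it had 10.

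Among genes of cholesterol synthesis and transport, 5 of 27 tested were called, all lower, or 18.5% against 1.24% over all genes tested. In this list 21 were negative, 6 positive and the median was -0.2. Stard4, which carries sterols between membranes, had 23.3, 20.3, 19.5, 22.9 and 24.4 CPM in antibiotics-morphine libraries, 35.4, 27, 36, 36.7 and 31.4 CPM in antibiotics-saline libraries, 36.7, 33, 36, 32.4 and 30.1 CPM in water-morphine libraries, and 36.6, 32.4, 36.6, 30.6 and 30.2 CPM in water-saline libraries. The antibiotics-morphine libraries lay below all 15 others. The interaction was -0.61 ± 0.14 (SE, log2; edgeR adjusted p = 0.0295), with a log2 fold change of morphine of -0.59 ± 0.1 under antibiotics and 0.02 ± 0.1 on water. Hmgcs1, an early enzyme of the pathway, was at -0.5 ± 0.12 and Msmo1, a sterol demethylating oxidase, at -0.49 ± 0.12 (SE, log2; edgeR adjusted p = 0.0302 each). All 5 antibiotics-morphine libraries were below all others for both. Sqle, squalene epoxidase, was at -0.45 ± 0.12 (SE, log2; edgeR adjusted p = 0.0454). Of the 20 fits without 1 library, Stard4 kept its call in 15, Hmgcs1 and Msmo1 in 13 each and Sqle in 6. Hmgcs1 shares exon sequence with the antisense gene Gm48342, counted at 85.6 CPM on average, so its value is uncertain. The list had 0 called members without antibiotics-morphine replicates 2 or 3, antibiotics-saline replicates 3 or 4, or water-saline replicate 5, each left out alone. It had 1 without water-morphine replicates 2 or 3 and 1 with marker covariates, 3 without antibiotics-saline replicate 1 or water-saline replicate 4, and 7 without antibiotics-morphine replicate 5.

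**Figure D4:**
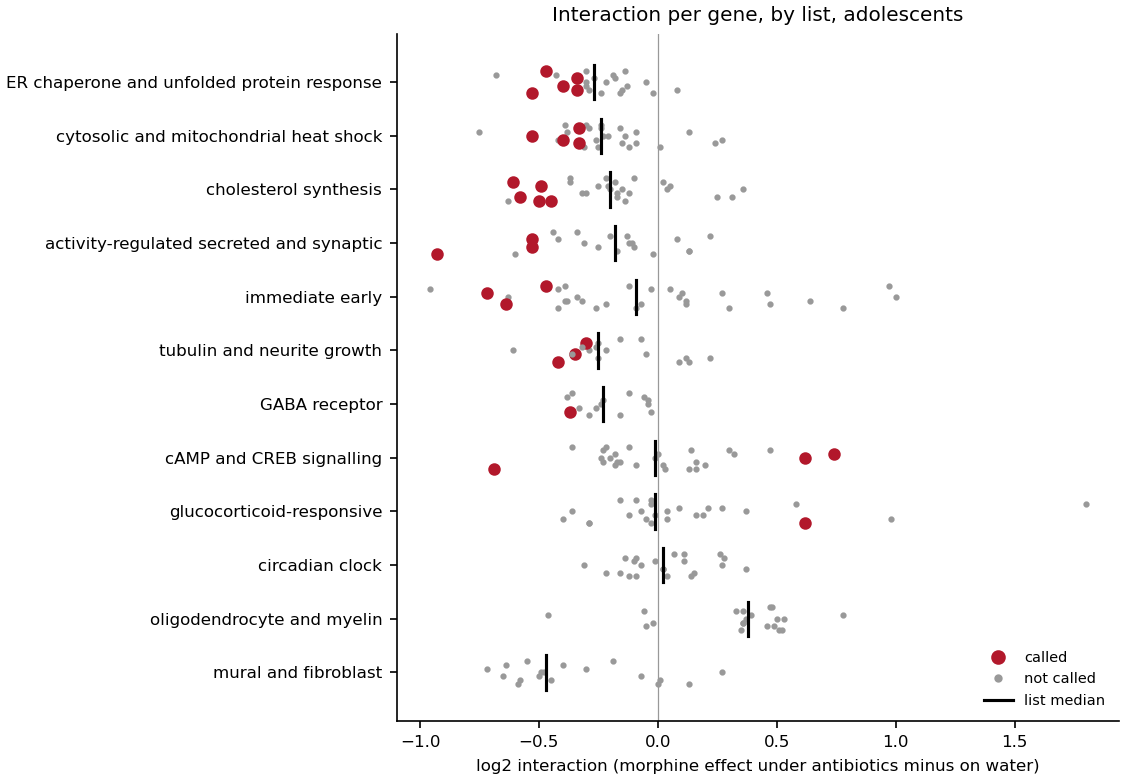
Interaction on the log2 scale of every tested member of 12 gene lists in adolescents, 1 point per gene, with called genes in red and the list median as a black bar. The chaperone, cholesterol, activity-regulated secreted and tubulin lists lie mostly below 0 with all their called members there, cAMP and CREB genes have called members on both sides, and the clock genes lie around 0.

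Tubulins and GABA receptors also had negative medians. Of 18 tested genes of tubulin and neurite growth, 3 tubulins were called lower, 14 members were negative and the median was -0.25. The share called was 16.7%, against 1.24% over all genes tested. Tubb3, the neuronal beta tubulin, was at -0.35 ± 0.09 (edgeR adjusted p = 0.0332), Tubb2a at -0.42 ± 0.11 (edgeR adjusted p = 0.0344) and Tuba1b at -0.3 ± 0.08 (SE, log2; edgeR adjusted p = 0.0393). Tubulin genes are near copies of each other and Tuba1b overlaps the antisense gene Gm41396 at 89.7 CPM, so the split of reads between them is uncertain. Of the 20 fits without 1 library, Tubb3 kept its call in 12, Tubb2a in 11 and Tuba1b in 8. The list had 0 called members in the fit of adolescents alone, with marker covariates, and without antibiotics-morphine replicates 2 or 3, antibiotics-saline replicates 3 or 4, water-morphine replicates 2 or 3 or water-saline replicate 5. It had 1 without antibiotics-saline replicate 1, water-morphine replicate 5 or water-saline replicate 4, and 6 without antibiotics-morphine replicate 5. All 14 tested GABA receptor genes had a negative interaction, with a median of -0.23. The share called, from 1 gene, was 7.14%, against 1.24% over all genes tested. The called member, Gabra2, a subunit of synaptic GABA-A receptors, had 46.9, 35.1, 41.1, 40.7 and 46.5 CPM in antibiotics-morphine libraries, against 50.7 to 59.3 CPM in antibiotics-saline, 56.8 to 64.4 CPM in water-morphine and 55.6 to 64.3 CPM in water-saline libraries. The antibiotics-morphine libraries lay below all others. Its interaction was -0.37 ± 0.1 (SE, log2; edgeR adjusted p = 0.0482). The call held in 4 of the 20 fits without 1 library, those without antibiotics-morphine replicates 1 or 5, water-morphine replicate 1 or water-saline replicate 3. It was also lost in the fit of adolescents alone, with an offset for GC content and length, and with marker covariates. Among 24 tested glutamate receptor genes 0 were called and the median was -0.04.

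Genes with a higher interaction came from many functions. Rere, a nuclear corepressor of the atrophin family, had 176, 175, 179, 170 and 162 CPM in antibiotics-morphine libraries, 126, 139, 123, 125 and 141 CPM in antibiotics-saline libraries, 157, 151, 144, 136 and 147 CPM in water-morphine libraries, and 153, 150, 136, 137 and 150 CPM in water-saline libraries. The antibiotics-morphine libraries lay above all 15 others. Its interaction was 0.38 ± 0.08 (SE, log2; edgeR adjusted p = 0.011). Arhgef10l, an exchange factor that activates small GTPases, averaged 88.8 ± 11.7 CPM in antibiotics-morphine, 66.3 ± 2.5 in antibiotics-saline, 62 ± 5.16 in water-morphine and 66.5 ± 6.65 in water-saline libraries (SD, n = 5 each), again with no overlap between the first group and the rest. Its interaction was 0.53 ± 0.11 (SE, log2; edgeR adjusted p = 0.0118). Fam214a had 42.7, 55.7, 49.6, 50.7 and 40.4 CPM in antibiotics-morphine libraries, 34.4, 36.6, 32.6, 34 and 34.7 CPM in antibiotics-saline libraries, 34.8, 32.1, 38.7, 34 and 35.5 CPM in water-morphine libraries, and 40.8, 37.1, 34, 37.7 and 38.5 CPM in water-saline libraries. Only the lowest antibiotics-morphine library, replicate 5, overlapped with another group, at 1 water-saline library. Its interaction was 0.58 ± 0.11 (SE, log2; edgeR adjusted p = 0.00878).

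Uvssa, which acts in the repair of transcribed DNA, had 22.1, 26, 23.5, 24.6 and 12.2 CPM in antibiotics-morphine libraries, 14.6 to 15.8 CPM in antibiotics-saline, 11.3 to 14.5 CPM in water-morphine and 14 to 19.2 CPM in water-saline libraries. The first 4 antibiotics-morphine libraries lay above every other library and replicate 5 lay among the lowest. Its interaction was 0.87 ± 0.18 (SE, log2; edgeR adjusted p = 0.0118). Gcfc2, which overlaps the antisense gene Mrpl19 at 26.3 CPM, showed the same split, with 14, 15.7, 16.1, 16.1 and 10.8 CPM in antibiotics-morphine libraries and 7.43 to 13.8 CPM in the other 15, and an interaction of 0.88 ± 0.19 (SE, log2; edgeR adjusted p = 0.0172). Wnt10b, a secreted Wnt ligand, had 6.47, 12.2, 9.13, 9.3 and 2.67 CPM in antibiotics-morphine libraries, 2.25 to 3.87 CPM in antibiotics-saline, 1.4 to 2.42 CPM in water-morphine and 1.16 to 4.13 CPM in water-saline libraries, with replicate 5 again among the other groups. The interaction of Wnt10b was 1.75 ± 0.43 (SE, log2), or 3.36 times (edgeR adjusted p = 0.0338). It was the called member of 25 tested Wnt genes, or 4% against 1.24% over all genes tested, and the median of the list was -0.04. The call was lost in 7 of the 20 fits without 1 library (antibiotics-morphine replicates 2 or 3, antibiotics-saline replicates 3 or 4, water-morphine replicate 2, water-saline replicates 1 or 5), in limma-voom, in the fit of adolescents alone and with marker covariates. Without antibiotics-morphine replicate 1 the list had 2 called members.

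Further called genes with a higher interaction were Plcd3, a phospholipase C, at 0.74 ± 0.15 (edgeR adjusted p = 0.0118), the zinc finger gene Zfp46 at 0.48 ± 0.1 (edgeR adjusted p = 0.016) and Mllt6, a chromatin reader, at 0.45 ± 0.1 (edgeR adjusted p = 0.022). Itih3, a heavy chain of a plasma protease inhibitor, was at 0.84 ± 0.18, and Plekhm2, which links lysosomes to kinesin, at 0.38 ± 0.08 (SE, log2; edgeR adjusted p = 0.0273 each). Pkd1, which encodes polycystin 1, was at 0.56 ± 0.12 (edgeR adjusted p = 0.0276) and overlaps the antisense gene Tsc2 at 138 CPM, which makes its value uncertain. Further genes with a lower interaction were Tceal9 at -0.52 ± 0.1 (edgeR adjusted p = 0.00878) and Inka2, an inhibitor of the kinase PAK4, at -0.42 ± 0.08 (SE, log2; edgeR adjusted p = 0.0107). The pseudokinase Trib2 stood at -0.5 ± 0.11 (edgeR adjusted p = 0.0173), Zc3h15, a zinc finger gene, at -0.41 ± 0.09 (edgeR adjusted p = 0.0251) and Stk40, another pseudokinase, at -0.5 ± 0.11 (edgeR adjusted p = 0.0273). Myl4, a myosin light chain best known from the heart atrium, was at -1.05 ± 0.23 (SE, log2; edgeR adjusted p = 0.0289). Hdac9, a class II histone deacetylase, was at -0.42 ± 0.11 (SE, log2; edgeR adjusted p = 0.0344). It was the called member of 17 tested histone deacetylase and related genes, or 5.88% against 1.24% over all genes tested. The median of that list was 0.09. Of these 13 genes Tceal9 and Inka2 stayed called without each library in turn, as did Plcd3, and the fewest fits were kept by Hdac9, 12 of 20.

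Fkbp5, a co-chaperone of the glucocorticoid receptor that glucocorticoids induce, had 37.9, 45.2, 49, 46.2 and 30.3 CPM in antibiotics-morphine libraries, 23.6, 20.7, 26.7, 25.6 and 26 CPM in antibiotics-saline libraries, 22.7, 22.5, 26.2, 28.8 and 24.6 CPM in water-morphine libraries, and 24.3, 24.4, 18.4, 20.5 and 25.1 CPM in water-saline libraries. The antibiotics-morphine libraries lay above all others, with replicate 5 the lowest of them. The interaction of Fkbp5 was 0.62 ± 0.16 (SE, log2; edgeR adjusted p = 0.0395) and the call held in 6 of the 20 fits without 1 library, with an adjusted p of up to 0.106. It was the called member of 25 tested glucocorticoid-responsive genes, or 4% against 1.24% over all genes tested, and the median of the list was -0.01. The list had 4 called members without antibiotics-morphine replicate 5 and 2 without water-saline replicates 3 or 4. It had 0 without antibiotics-morphine replicates 2, 3 or 4, antibiotics-saline replicates 1, 2, 3 or 4, water-morphine replicates 1, 2, 3 or 5, or water-saline replicates 2 or 5, each left out alone.

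The clock genes gave no call. Among 22 tested members 0 passed edgeR's test, against 1.24% over all genes tested, and the median was 0.02. The member with the smallest p, Bhlhe40, had an interaction of -0.31 ± 0.11 (SE, log2; edgeR adjusted p = 0.112). Its log2 fold change of morphine was 0.1 ± 0.07 under antibiotics (edgeR adjusted p = 0.54) and 0.41 ± 0.07 on water (edgeR adjusted p = 0.00126). Bhlhe40 was called in 1 of the 29 alternative fits and overlaps the antisense gene 0610040F04Rik at 20 CPM. Per2, a repressor of the circadian clock, averaged 59.2 ± 6.07 CPM in antibiotics-morphine, 30.2 ± 7.52 in antibiotics-saline, 62.2 ± 10.7 in water-morphine and 31.6 ± 4.57 in water-saline libraries (SD, n = 5 each). Its log2 fold change of morphine was 0.97 ± 0.15 under antibiotics (edgeR adjusted p = 0.000302) and 0.98 ± 0.15 on water (edgeR adjusted p = 0.000403), and its interaction -0.01 ± 0.22 (SE, log2; edgeR adjusted p = 0.987). Dbp, a clock-controlled transcription factor that overlaps the antisense gene Sphk2 at 63.8 CPM, had an interaction of -0.14 ± 0.13 (SE, log2; edgeR adjusted p = 0.61). Among 6 tested cold-inducible RNA-binding genes 0 were called and the median was 0.2. Of these, Cirbp stood at 0.42 ± 0.14 (edgeR adjusted p = 0.1) and Rbm3 at 0.34 ± 0.11 (SE, log2; edgeR adjusted p = 0.0929). Without antibiotics-morphine replicate 5 both were called, with adjusted p-values of 0.00278 for Cirbp and 0.0319 for Rbm3. Rbm3 shares exon sequence with the antisense gene Rbm3os at 14.9 CPM.

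Cell type markers were mostly without calls. Fabp7, a lipid-binding protein of astrocytes and their precursors, had 8, 7.58, 5.29, 6.07 and 8.12 CPM in antibiotics-morphine libraries, 15.2, 9.49, 15.9, 17.3 and 15.6 CPM in antibiotics-saline libraries, 12.9, 14.7, 19.4, 12.2 and 13 CPM in water-morphine libraries, and 14.6, 12.4, 16, 17.6 and 24.7 CPM in water-saline libraries. The antibiotics-morphine libraries lay below all others. Its interaction was -0.82 ± 0.22 (SE, log2; edgeR adjusted p = 0.0482), and the call held in 6 of the 20 fits without 1 library. The call was also lost in the fit of adolescents alone, with an offset for GC content and length, and with marker covariates. Fabp7 was the called member of 16 tested astrocyte markers, or 6.25% against 1.24% over all genes tested. The median of these markers was 0.04. Among 20 tested oligodendrocyte and myelin genes 0 were called, yet 16 were positive and the median was 0.38. Their summed level ranged from 1800 to 2590 CPM in antibiotics-morphine, 1530 to 2100 in antibiotics-saline, 1670 to 1990 in water-morphine and 1530 to 2690 in water-saline libraries. With covariates from 6 marker lists, myelin among them, 82 genes were called, of which the chaperone list of the endoplasmic reticulum held 3. Markers of mural cells and fibroblasts had a median of -0.47, 14 of 18 negative, with 0 called. Their summed level was 978 to 1270 CPM in antibiotics-morphine, 948 to 1710 in antibiotics-saline, 863 to 1520 in water-morphine and 813 to 1660 in water-saline libraries.

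The remaining lists held 0 called genes: markers of cortical excitatory neurons (20 tested, median -0.05), interneurons (16, median 0.07), striatal neurons (15, median -0.01), oligodendrocyte precursors (13, median 0.14), microglia (20, median 0.02), endothelium (17, median -0.06), choroid plexus and ependyma (3, median -0.8) and blood (5, median 0.17). The same held for innate immune genes (21, median 0.07), potassium channels (22, median 0.02), splicing and nuclear RNA genes (27, median 0.12) and the 13 genes of the mitochondrial genome (median 0.09). Among 80 tested respiratory chain genes of the nucleus 77 were negative, with a median of -0.17, while for 76 ribosomal protein genes 58 were negative, with a median of -0.05. Over all genes tested 9246 were negative and 8634 positive. The nuclear noncoding RNA Malat1 had 1340, 1310, 1460, 1020 and 858 CPM in antibiotics-morphine libraries, 578 to 910 CPM in antibiotics-saline, 592 to 813 CPM in water-morphine and 731 to 1320 CPM in water-saline libraries. Its interaction was 1.17 ± 0.32 (SE, log2; edgeR adjusted p = 0.0606), and it was called in 6 of the 29 alternative fits, with an adjusted p of 0.0208 without antibiotics-morphine replicate 5. Malat1 shares exon sequence with the antisense gene Gm37376 at 126 CPM. Genes called higher had a median GC content of 51.7% and those called lower 45.8%, against 49.7% over all genes tested. The median length of the longest transcript was 4424 bases for the genes called higher and 3237 for those called lower, against 3101 over all genes tested. The slope of log2 level, relative to the mean over libraries, per 10 percentage points of GC content was 0.049 to 0.0986 in antibiotics-morphine replicates 1 to 4 and -0.0182 in replicate 5. It was -0.0476 to 0.0715 in antibiotics-saline, -0.0481 to 0.023 in water-morphine and -0.00667 to 0.0911 in water-saline libraries. With an offset for GC content and length, a fit added after the data were seen, 193 genes were called. Of the 51 called genes named, 11 lost the call in that fit. They were Nptx2, Dusp6, Gabra2, Fabp7, Pdia3, Hsp90b1, Hspd1, Dnaja1, Tubb2a, Pkd1 and Plekhm2. The part of RNA quality in these results was not tested.

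In adults the same contrast called 0 of 17880 genes in edgeR (0%), with 1214 at an unadjusted p under 0.05 against 3027 in adolescents. DESeq2 called 1 gene in adults and limma-voom 0. Across the genes called higher in adolescents the interaction in adults had a median of 0, and across those called lower -0.06 (log2). The difference between the ages, tested gene by gene, was called for 2 genes, 0.0112% of those tested, 1 with a higher and 1 with a lower interaction in adolescents (0.00559% each). AC167245.1, an unnamed transcript outside the rule for named genes and chosen after its values were seen, had 0 to 18 counts per library, near the floor of 3 counts. Its difference between the ages was 6.54 ± 1.1 (SE, log2; edgeR adjusted p = 0.00366), a fitted value that depends on the prior count.

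For the other genes a called interaction in adolescents and none in adults is not a shown difference between the ages. Bdnf had an interaction of -0.19 ± 0.15 in adults and a difference of -0.74 ± 0.21 (SE, log2; edgeR adjusted p = 0.168). That of Crtc3 was -0.12 ± 0.14 in adults and the difference 0.86 ± 0.2 (SE, log2; edgeR adjusted p = 0.091). Klf10 had nearly the same interaction at both ages, -0.56 ± 0.13 in adults with an adjusted p of 0.391 there, and a difference of -0.16 ± 0.19 (SE, log2; edgeR adjusted p = 0.794). Hspa5 was at -0.08 ± 0.1 in adults, with a difference of -0.44 ± 0.15 (SE, log2; edgeR adjusted p = 0.223). The count of genes that differed between the ages ran from 1 to 11 when single libraries were left out. It was 11 and 10 without adult water-morphine replicate 4 and adult antibiotics-saline replicate 4, 9 without adolescent water-saline replicate 1, and 1 without each of 22 libraries. Start day and any processing batch of the ages cannot be told apart from age.

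**Figure D5:**
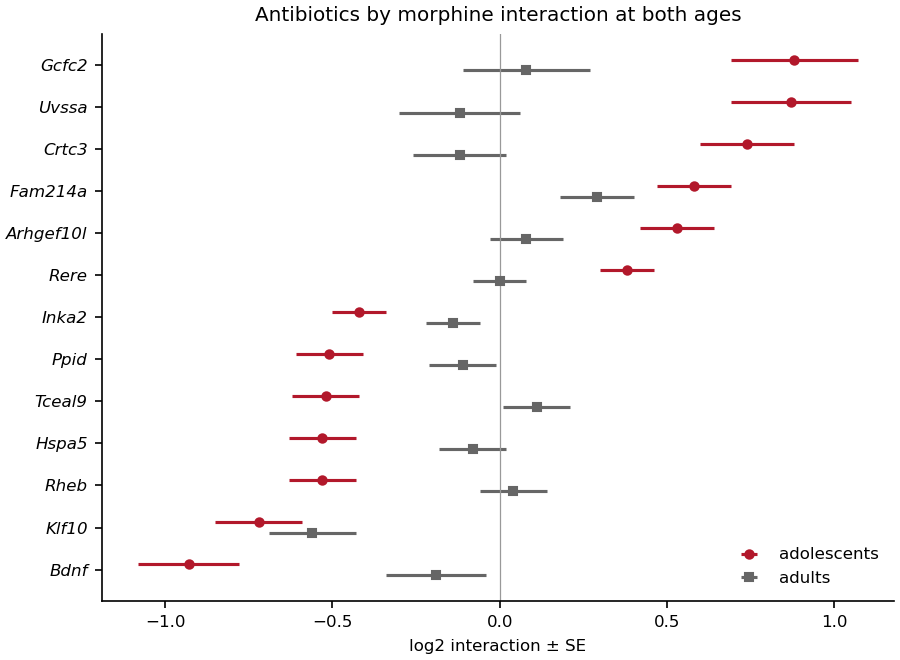
Interaction on the log2 scale with its SE in adolescents (red circles) and adults (grey squares) for the 13 genes called in every alternative fit. Adult values lie nearer 0 than adolescent ones for each gene, which the choice of genes called in adolescents favours, and none of these 13 had a called difference between the ages.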

How the data were processed

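RNA was sequenced from 40 libraries, 8 groups of 5. The deposited file holds whole-number counts, not normalized by the authors, for 56980 gene identifiers. Per the submitters' processing notes STAR 2.7.10a, DESeq2 and the mm10 build were used. The annotation and the strand setting of counting were looked for in the file headers and labels and found in neither. Of the identifiers, 91.4% matched a symbol in the reference table, without their version numbers. Columns were mapped to samples by the library names in the sample descriptions, and groups were read from the titles. For adult antibiotics-morphine replicate 3 the column name adds a suffix to the library name. From the counts, genes passing edgeR's filter (minimum count 10, total 15) were fitted with edgeR 4.0.16 in R 4.3.3, with TMM scaling, 8 groups and robust quasi-likelihood F tests. P-values were adjusted by Benjamini-Hochberg over 17880 genes and called under 0.05. The standard error is the log2 fold change over the square root of F. Those genes held 99.75 to 99.82% of counts, and the common biological variation was 9.14%. On simulated counts with an interaction in 50 genes at each size, 9 of 50 were recovered at 1.3-fold, 19 at 1.5-fold, 41 at 2-fold and 48 at 3-fold. In the same simulation 6 unchanged genes were called. Each gene was drawn on its own, so shifts shared by many genes of a library were not simulated. No pair of libraries within an adolescent group agreed within sampling noise. Promoter sequences are from RefSeq, GRCm38.p6. The alternatives used DESeq2 1.42.0, limma 3.58.1, other filters and scalings, the adolescents alone, the replicate number as a block, and each library left out in turn.

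Named genes were the 12 higher and 12 lower called genes of smallest p that averaged 1 CPM or more and carry an established symbol. Each list contributed its called members, 3 at most, or its leading member where none was called, and 14 genes of the opioid, clock, activity and chaperone pathways were named whatever their p. AC167245.1, Adcyap1, Grk3, Pdia3, Hsp90b1, Sqle and Dnaja1 lie outside this rule and were chosen after their values were seen. Some results are not reported here. The members and the lists were chosen with earlier results of these data known.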

Additional observations from a re-analysis of the deposited data

Results flagged for a closer look

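In 15 of 204 groups of 5 libraries, taken over the 4 adolescent groups of the 51 called genes named, 1 library lay apart from the other 4 by more than 0.71 of the group's range (Dixon's test). Chance gives about 1 in 20. In antibiotics-morphine libraries, replicate 5 was high for Homer1 (224 CPM) and Ppid (51.4 CPM) and low for Uvssa (12.2 CPM). For Ppid and Uvssa this was toward the other groups. For Homer1 it was toward antibiotics-saline and water-morphine but above every water-saline library (148 to 213 CPM). In antibiotics-saline libraries, replicate 4 was high for Hspa5 (219 CPM), Hsp90b1 (210 CPM), Pdia3 (155 CPM) and Tubb3 (374 CPM), and replicate 2 was low for Fabp7 (9.49 CPM). In water-morphine libraries, replicate 3 was low for Crem (12.5 CPM) and high for Msmo1 (83.1 CPM), while replicate 4 was low for Hsp90b1 (200 CPM) and Sqle (61.5 CPM) and high for Plcd3 (15.7 CPM). In water-saline libraries, replicate 5 was high for Dnajb5 (157 CPM) and replicate 4 for Inka2 (155 CPM).

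The interaction differed between adolescents and adults, by a test of the difference itself, for AC167245.1 by 6.54 on the log2 scale (edgeR). This gene lay near the floor, with 0, 1, 2, 0 and 1 counts in adolescent antibiotics-saline libraries and 1, 1, 1, 1 and 5 in adult water-saline libraries. With covariates from 6 cell marker lists 0 genes were called for the difference between the ages.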

How the results depend on the processing

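Of 2260 interactions of the 78 named genes under the alternatives, 1858 kept their direction and their side of the threshold, 353 lost the call, 49 gained one and 0 called ones changed sign. With all libraries 221 genes were called in adolescents, 0 in adults and 2 for the difference between the ages. With no filter on low counts these were 485, 15 and 112. With DESeq2 they were 423, 1 and 61, and with limma-voom and quality weights 457, 0 and 14. Leaving out 1 library gave 19 (without antibiotics-morphine replicate 2) to 773 (without antibiotics-morphine replicate 5) in adolescents, 0 to 1 in adults (1 without adult water-morphine replicate 5) and 1 to 11 for the difference between the ages. In fits added after the data were seen, an offset for GC content and length gave 193, 0 and 4, and covariates from 6 cell marker lists gave 82, 0 and 0. DESeq2's size factors in edgeR gave 120 higher and 101 lower calls, where TMM gave 111 and 110, and the fit of adolescents alone gave 99 and 61. The replicate block gave 232 calls in adolescents, 194 of them shared with the 221, and 2 calls in adults and 12 for the difference. No pairing by number was seen: correlations of same-numbered adolescent libraries ran from -0.174 to 0.129 over 30 pairs. Of 20 libraries, 4 correlated best with their own number. Weak correlations cannot exclude a pairing. The cause of these changes was not tested. At this depth and spread, folds of 1.3 were mostly missed in simulated counts, so a gene without a call is not shown to be unchanged.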
